A study of Mus musculus with 8 samples.

Results

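Mouse bone marrow-derived macrophages with a conditional knockout (cKO) of PTIP were compared with wildtype (WT) macrophages 6 h after LPS, a bacterial cell wall component. RNA-seq was done on 8 samples in 4 groups of 2, and the comparison rested on the 4 samples that received LPS, 2 of each genotype. All mice were C57BL/6, and the labels call the genotypes PtipWT and PtipcKO. Marrow cells of the femur had been kept in medium with 10% FBS and 10 ng/ml M-CSF, a macrophage growth factor, over 7 days before they received 100 ng/ml LPS for 6 h, or for 0 h in the other 4 samples. Not given in the sources used here are the Cre line, the deleted exons, the age of the mice and how many mice stand behind a sample. The series text names the samples of a group biological replicates, and p-values here measure the spread between these samples.

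The value compared was the difference in mean rlog per gene, cKO minus WT. An rlog is a regularised log2 expression value, in which 1 unit stands for a 2-fold difference before shrinkage, which moves low-count genes toward their average. Of 55226 genes in the table, 11543 reached an average rlog of 3 across the 8 samples and were tested. A limma fit of all 8 samples gave each gene a standard error (SE) and a Benjamini-Hochberg adjusted p, with a threshold of 0.05 for a call. Read counts were not used here, so the depth of each library is unknown.

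PTIP is a subunit of the histone methyltransferase complexes built on the enzymes of Kmt2c and Kmt2d, which place H3K4 methyl marks at enhancers and promoters. It also binds 53BP1 at DNA breaks. LPS is sensed on macrophages by the receptor of Tlr4 with its partners Cd14 and Ly96, and the signal runs through NF-kB, AP-1 and interferon regulatory factors to cytokine, chemokine and interferon-stimulated genes.

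The cKO macrophages had 174 genes at a higher and 284 at a lower level than WT macrophages after LPS, which is 1.51% and 2.46% of the genes tested and 3.97% together. The median difference of the called genes was 1.26 for the higher and -0.93 for the lower ones, against -0.03 for all genes tested. A difference of at least 1 was found in 123 of the higher and 115 of the lower genes. The higher genes were led by the protease gene Tysnd1 and the lysozyme gene Lyz1. The lower genes were led by the collagenase gene Mmp13, the adhesion gene Vcam1, the receptor gene Lpar1 and the prostaglandin synthase gene Ptgs2. Inflammatory cytokines, chemokines, adhesion and matrix genes, alternative activation genes and costimulatory genes had called members that were lower in cKO and none that were higher. Of the called genes 38% were higher, and under quantile normalization of the samples, which called 115 higher and 120 lower genes, 48.9% were.

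**Figure D1:**
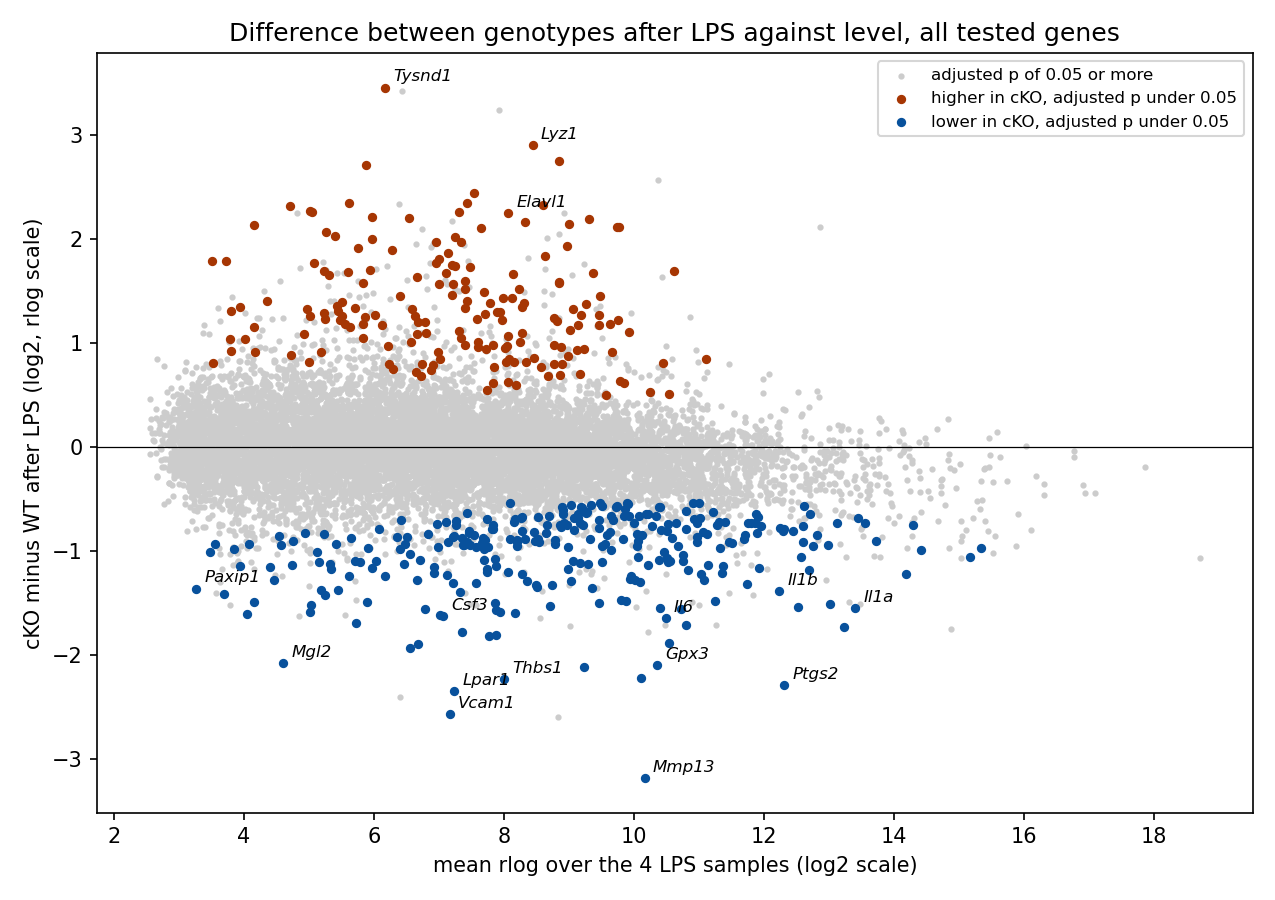
Difference between cKO and WT after LPS (y axis, log2 on the rlog scale) against the mean rlog of the 4 LPS samples (x axis), 1 point per tested gene. The 174 genes called higher and 284 called lower are coloured, and named examples run from Tysnd1 at 3.46 to Mmp13 at -3.19.

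The WT LPS libraries stood apart from the other 6 in how their values depended on the GC content of the transcript, as described further on. Counts with a correction for it are given for all calls, the calls chosen for description and the cytokine, chemokine and adhesion lists. In bulk RNA, fewer cells of a kind cannot be told apart from less RNA per cell. The calls rested on all 4 LPS libraries. The limma fit called 0 genes without cKO LPS replicate 1 (1845 at an unadjusted p under 0.05) and 0 without cKO LPS replicate 2 (1549). Without WT LPS replicate 1 it called 6 higher and 8 lower genes, and without WT LPS replicate 2 it called 112 and 197. In each of these fits 1 sample stood alone in its group, and all 458 called genes kept their direction. Of the 79 called genes chosen by rule for description below, 4 were called without WT LPS replicate 1 (Lyz1, Elavl1, Adam33 and Mrc1), 43 without WT LPS replicate 2, 37 under quantile normalization and 56 once GC content and transcript length were corrected for. With the GC and length correction 23 of the 79 lost their call. Higher genes among them were Clptm1, Trp53rka, Tspan17, Mgat4b, Rrad, Fkbp1b, Mcoln1, Socs1, Mapk14 and Asl. Lower genes among them were Cyld, Tyms, Hif1a, Tlr8, Gbp5, Ccl3, Kat6a, Wfdc17, Ctsl, Igf1, Cd86, Il6 and Ccl8. The groups did not overlap in any of the 458 called genes. The same held for 53% of all genes tested, so that separation alone marks no gene here. The authors' deposited table has 296 genes higher and 350 lower at their own adjusted p under 0.05. Of these, 145 and 204 were called here too, which is 49% and 58.3% of the authors' lists and 83.3% and 71.8% of the lists here, with 0 in the opposite direction.

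Paxip1 (chromosome 5, 27740080 to 27791691, minus strand, GRCm38) encodes PTIP and had an rlog after LPS of 3.82 and 4.08 in WT and 2.54 and 2.63 in cKO. Both libraries labelled cKO lay below both WT libraries, and the difference was -1.36 (SE 0.18, adjusted p = 0.0156). The cKO means of 2.51 at 0 h and 2.59 after LPS lay below the filter of 3, which Paxip1 passed through its WT values. The authors' deposited table lists a log2 fold change of -4.04 with an adjusted p of 1. At 0 h the difference was -1.99, and the change of the difference between the times had an unadjusted p of 0.0401 and an adjusted p of 0.751. Of the 11 tested PTIP complex genes Paxip1 was the 1 call. The nearest to it in unadjusted p was Kmt2c, an H3K4 methyltransferase of the complex, with 6.95 and 7.23 in WT and 6.65 and 6.32 in cKO; its difference was -0.60 (SE 0.18, adjusted p = 0.0936), against 0.23 at 0 h. The WT replicates lay above the cKO replicates without overlap, and the difference between the times had an unadjusted p of 0.0102 and an adjusted p of 0.688. Wdr5, a core subunit shared by H3K4 methyltransferase complexes, had 7.22 and 7.01 in WT and 7.56 and 7.60 in cKO, a difference of 0.46 (SE 0.14, adjusted p = 0.105). Pagr1a, the gene of a direct PTIP partner, lay below the filter at -2.17 in all 4 LPS libraries.

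Cytokine genes were the list with the highest share of calls: 7 of 18 tested inflammatory cytokines were lower in cKO (38.9%, against 2.46% of all genes) and 0 were higher. Their median difference was -0.94, and 16 of the 18 lay below 0. Il6, a fever and acute phase cytokine, had 11.08 and 11.55 in WT and 9.61 and 9.71 in cKO after LPS. Il1a, an alarm cytokine of the interleukin 1 family, had 14.15 and 14.20 in WT and 12.48 and 12.77 in cKO, and its relative Il1b had 13.16 and 12.70 in WT and 11.47 and 11.61 in cKO. In each of these 3 genes both cKO libraries were below both WT libraries by more than the gap between replicates. The difference was -1.65 (SE 0.33, adjusted p = 0.0353) for Il6, -1.55 (SE 0.26, adjusted p = 0.0219) for Il1a and -1.39 (SE 0.26, adjusted p = 0.0294) for Il1b. Il6 lost its call with no filter, under quantile normalization, without a variance trend and with the GC and length correction. Il1a and Il1b lost theirs with no filter and under quantile normalization. Csf3, the gene of the neutrophil growth factor G-CSF, had 7.96 and 7.80 in WT and 5.82 and 6.68 in cKO and differed by -1.63 (SE 0.35, adjusted p = 0.0446). Il12a, a subunit of interleukin 12 that drives T cell responses, was 11.73 and 12.26 in WT and 10.45 and 10.57 in cKO and differed by -1.49 (SE 0.33, adjusted p = 0.0459). Both genes were low in both cKO libraries. The last 2 calls were Tnfsf15, a TNF family ligand that costimulates T cells (-1.14, SE 0.19, adjusted p = 0.0202), and Il1rn, the antagonist of the interleukin 1 receptor (-0.90, SE 0.18, adjusted p = 0.0339).

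Other cytokines missed the threshold. Il12b, the other subunit of interleukin 12, had 15.33 and 16.19 in WT and 13.57 and 14.45 in cKO and a difference of -1.75 (SE 0.46, adjusted p = 0.0739), larger than that of any called cytokine but with a wider SE. The restraining cytokine gene Il10 had 7.93 and 6.75 in WT and 6.60 and 6.13 in cKO and differed by -0.98 (SE 0.42, adjusted p = 0.226). Tnf had 13.61 and 14.00 in WT and 13.31 and 13.44 in cKO and differed by -0.43 (SE 0.18, adjusted p = 0.226), with groups that did not overlap. Of the 11 cytokines that were not called, 8 had an unadjusted p under 0.05, all in the lower direction, and Il18 (-0.19), Ebi3 (0.02) and Tnfsf9 (0.26) did not. Ifnb1, the interferon beta gene, was below the filter, at 4.24 and 3.29 in WT and 2.94 and 2.47 in cKO after LPS. The count of 7 was 6 after the GC and length correction, 3 without a variance trend or without WT LPS replicate 2, 2 without a filter, and 0 under quantile normalization or without any 1 of the other 3 LPS libraries, while the median stayed between -1.09 and -0.65.

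Promoter windows were read from RefSeq (GRCm38.p6), 250 bases before to 50 bases after each listed start, and the 250 bases before the start are shown for some of the genes that lead the groups described. Windows with matches were preferred for the lower genes, so those shown do not stand for all of them. Of 32851 windows, 294 belonged to 231 genes called lower, 170 to 134 genes called higher and 10982 to tested genes. Motifs were searched on both strands. AP-1 (TGACTCA or TGAGTCA) is the factor family of Fos and Jun. A kappa B core (GGGACTTTC or GGGAATTTC) is a form of the NF-kB site. The others were CRE (TGACGTCA), an interferon response core (GAAANNGAA), a TATA box (TATAAA), a heat shock element (GAANNTTC) and a hypoxia element (ACGTG). Other forms of these sites were not searched, so lower case letters do not mean that a site is absent. In the windows below capitals mark matches to these letters. The first pair are cytokine genes called lower, each with an AP-1 match; in Il1a it lies between a TATA box match and the start, and in Il6 at the far end of the window.
Il6, chr5:30012864-30013113, plus strand: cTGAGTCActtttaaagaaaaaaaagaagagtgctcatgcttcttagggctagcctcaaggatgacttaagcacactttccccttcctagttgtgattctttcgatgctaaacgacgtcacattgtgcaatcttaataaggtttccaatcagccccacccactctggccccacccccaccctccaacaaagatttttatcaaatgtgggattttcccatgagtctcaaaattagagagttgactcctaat
Il1a, chr2:129309973-129310222, minus strand: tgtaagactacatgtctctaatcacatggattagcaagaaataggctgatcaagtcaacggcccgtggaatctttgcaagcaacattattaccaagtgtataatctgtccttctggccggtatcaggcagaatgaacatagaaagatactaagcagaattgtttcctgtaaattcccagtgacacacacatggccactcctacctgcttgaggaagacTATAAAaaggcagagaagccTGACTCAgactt
The AP-1 letters stood in 22 windows of genes called lower (7.48%), in 4 of genes called higher (2.35%), in 3.88% of those of tested genes and in 5.2% of all windows. The kappa B core letters stood in 7 windows of genes called lower (2.38%), 1 of genes called higher (0.588%), and 0.637% and 0.612% of the tested and all windows. The interferon response core was found in 9.18% of the lower, 4.12% of the higher and 7.6% of the tested windows, and the TATA box in 9.52%, 5.29% and 7.28%. CRE letters were in 3.06%, 3.53% and 3.14%, heat shock letters in 4.76%, 8.24% and 5.72%, and hypoxia letters in 27.2%, 28.8% and 26.1%. A match describes letters only; genes can have several windows, and no test was made.

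**Figure D2:**
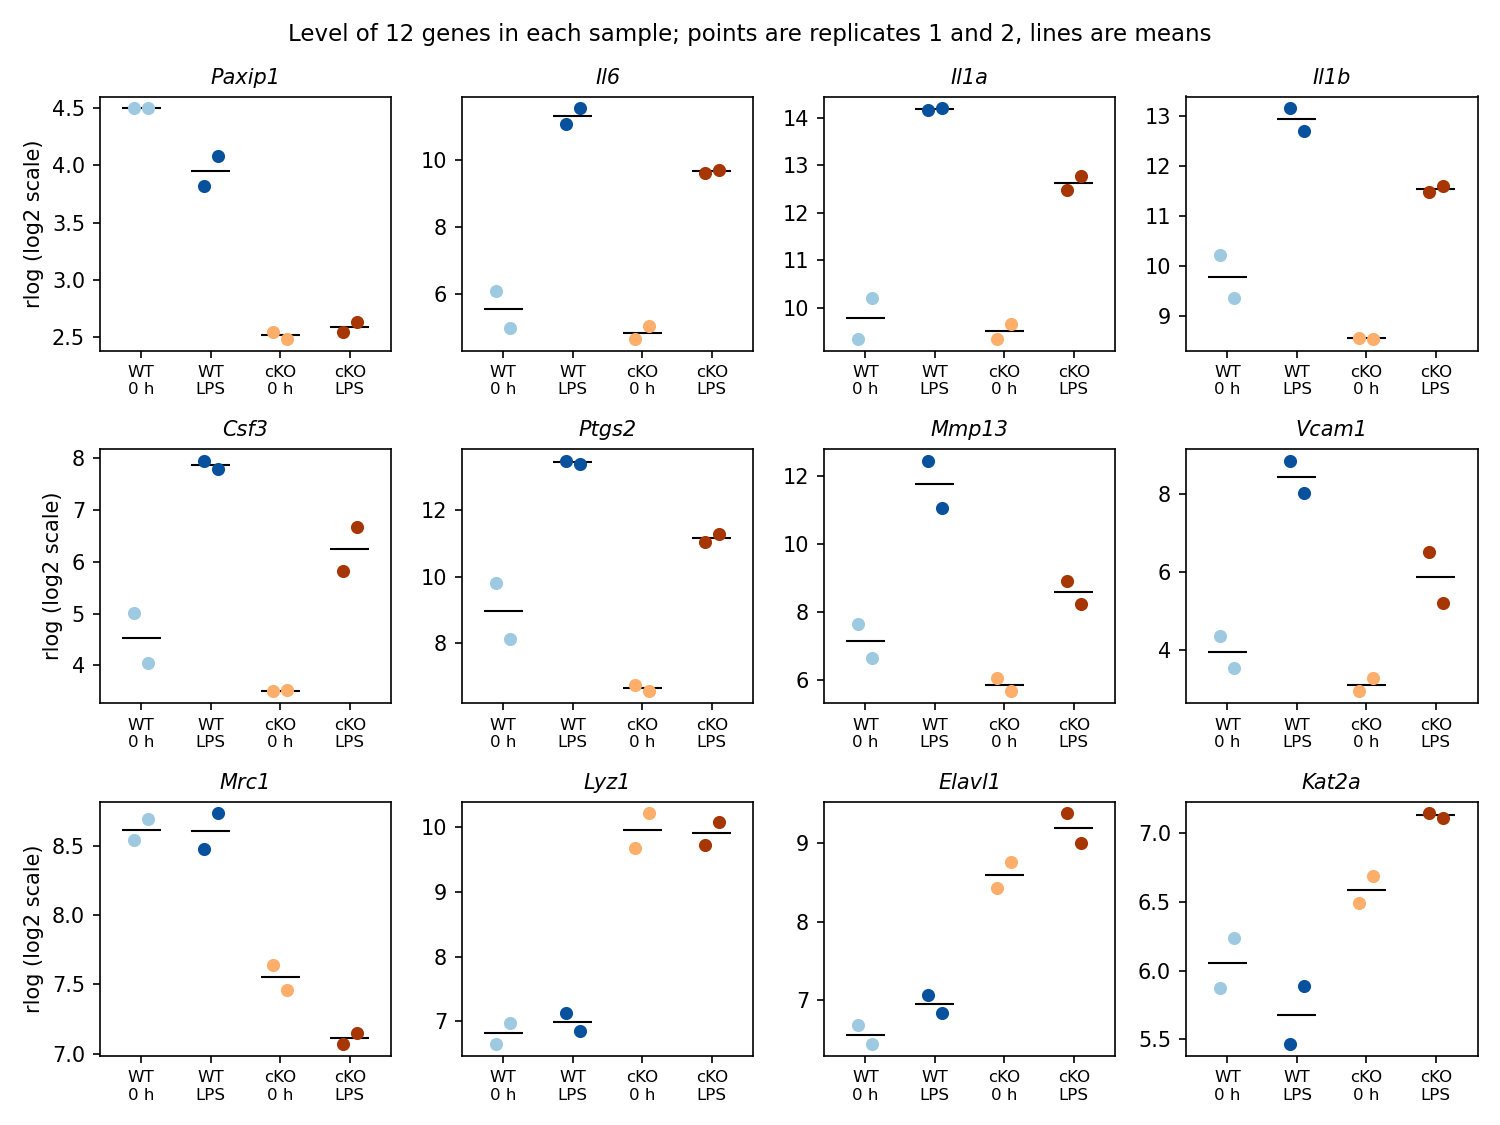
The rlog of 12 genes (y axis of each panel, log2 scale, each with its own range) in each of the 8 samples, grouped by genotype and time; points are replicates 1 and 2 and lines are group means. After LPS the cKO points lie below the WT points for Paxip1, Il6, Il1a, Il1b, Csf3, Ptgs2, Mmp13, Vcam1 and Mrc1, and above them for Lyz1, Elavl1 and Kat2a.

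Chemokine genes, which attract leukocytes, had 4 of 20 tested members lower in cKO (20%, against 2.46% of all genes) and 0 higher. Their median was -0.94, and all 20 lay below 0. Ccl8, a monocyte attractant, had 7.11 and 6.04 in WT and 5.18 and 4.58 in cKO, a difference of -1.69 (SE 0.38, adjusted p = 0.0478). Ccl6, which macrophages express at a high level without LPS, had 14.66 and 14.95 in WT and 13.71 and 13.45 in cKO and differed by -1.22 (SE 0.18, adjusted p = 0.016). Ccl3 had 15.71 and 15.96 in WT and 14.73 and 14.99 in cKO and differed by -0.97 (SE 0.22, adjusted p = 0.0484). In all 3 genes the cKO libraries lay below the WT libraries, for Ccl8 with replicates well apart in both genotypes. The neutrophil attractant gene Cxcl2 was the smallest call (-0.65, SE 0.14, adjusted p = 0.0446). Cxcl10, an interferon-induced chemokine, had 14.06 and 13.22 in WT and 13.15 and 12.79 in cKO, with groups that came close together, and the difference of -0.67 had an adjusted p of 0.561. Ccl5 had 15.12 and 15.22 in WT and 14.76 and 14.77 in cKO and a difference of -0.40 (adjusted p = 0.755), which was 0.10 under quantile normalization. The count of 4 was 1 after the GC and length correction, under quantile normalization, without a variance trend or with no filter, and 0 without WT LPS replicate 1 or either cKO library, with the median between -1.18 and -0.60.

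Tissue remodelling and adhesion genes held the lower genes with the largest differences. Of 31 tested, 6 were lower in cKO (19.4%, against 2.46% of all genes) and 0 higher, with a median of -0.39. Mmp13 (chromosome 9, 7272514 to 7283331, plus strand, GRCm38), a collagenase, had 12.46 and 11.06 in WT and 8.92 and 8.22 in cKO. Vcam1, an adhesion molecule of the immunoglobulin family, had 8.87 and 8.04 in WT and 6.53 and 5.22 in cKO. Thbs1, the gene of the matrix protein thrombospondin 1, had 9.36 and 8.86 in WT and 7.06 and 6.70 in cKO. All cKO values lay well below WT, and the replicates of Mmp13 and Vcam1 were themselves far apart in both genotypes. The differences were -3.19 (SE 0.48, adjusted p = 0.017) for Mmp13, -2.57 (SE 0.47, adjusted p = 0.0269) for Vcam1 and -2.24 (SE 0.37, adjusted p = 0.0216) for Thbs1. The other calls were the proteoglycan gene Sdc1 (-1.22, SE 0.20, adjusted p = 0.0202) and the integrin genes Itgam (-1.11, SE 0.17, adjusted p = 0.0178) and Itga4 (-0.90, SE 0.13, adjusted p = 0.0156); Itga4 encodes a chain of the Vcam1 receptor. Integrin genes Itgb1 (0.60) and Itgb7 (1.24), and the matrix gene Tgfbi (0.87), lay above 0 without a call. The list's count was 6 after the GC and length correction, 5 under quantile normalization, 1 without a filter and 0 without WT LPS replicate 1 or either cKO library, and its median was -0.12 under quantile normalization. The window of Mmp13 is shown because it held AP-1 and TATA box letters next to the start, with a pair of overlapping interferon response core matches farther away.
Mmp13, chr9:7272264-7272513, plus strand: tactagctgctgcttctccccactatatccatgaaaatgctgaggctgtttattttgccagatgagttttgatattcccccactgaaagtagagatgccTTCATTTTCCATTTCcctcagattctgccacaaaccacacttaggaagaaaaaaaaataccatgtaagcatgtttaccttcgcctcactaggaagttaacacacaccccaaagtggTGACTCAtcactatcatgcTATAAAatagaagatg

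In the list of prostaglandin, leukotriene and related lipid mediator enzymes 4 of 18 were lower (22.2%, against 2.46% of all genes). None was higher, and the median was -0.12. Ptgs2, the inducible cyclooxygenase, had 13.51 and 13.42 in WT and 11.04 and 11.30 in cKO, and Ptges, which makes prostaglandin E2 from its product, had 10.20 and 9.17 in WT and 8.35 and 8.43 in cKO. Both cKO libraries were below both WT libraries. The differences were -2.29 (SE 0.43, adjusted p = 0.0306) and -1.29 (SE 0.28, adjusted p = 0.0458). Ptgs2os, an antisense transcript at the Ptgs2 locus, was lower too, with 6.27 and 5.99 in WT and 4.83 and 4.66 in cKO and a difference of -1.38 (SE 0.20, adjusted p = 0.0156); whether the counting used strand is not given, so reads of the pair cannot be told apart. The same limit holds for other genes described here whose exons overlap a gene on the other strand, among them Elavl1 (with Ccl25), Il1b (with Il1bos), Dusp1 (with Ergic1), H3f3a (with H3f3aos) and Cxcl10 (with Art3), and, with genes known by clone names, Il1a, Vcam1, Thbs1, Acsl1 and Ms4a6b. Pla2g7, which inactivates platelet-activating factor (-0.75, SE 0.16, adjusted p = 0.039), and the thromboxane synthase gene Tbxas1 (-0.58, SE 0.13, adjusted p = 0.0485) were also lower. Alox5, the first enzyme of leukotriene synthesis, had a difference of 1.22 without a call. No member of the list was called under quantile normalization or with no filter. The window of Ptgs2 is shown as that of a leading lower gene without any of the letters searched in these bases; the same held for Lpar1, Gpx3, Mgl2, Acsl1, Car4, Trim30b, Cd200 and Tspan7.
Ptgs2, chr1:150099781-150100030, plus strand: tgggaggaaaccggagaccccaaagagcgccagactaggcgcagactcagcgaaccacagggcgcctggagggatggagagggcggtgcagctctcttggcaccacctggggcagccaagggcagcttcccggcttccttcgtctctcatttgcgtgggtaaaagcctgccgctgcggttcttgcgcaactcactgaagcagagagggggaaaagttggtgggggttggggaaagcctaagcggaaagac

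Cell surface genes through which macrophages engage T cells had called members in the lower direction. Of 15 MHC class II and costimulation genes 3 were lower (20%), 0 higher, and the median was -0.86, with 14 of the 15 below 0. Cd86, a ligand of CD28, had 12.03 and 11.41 in WT and 10.47 and 10.41 in cKO and differed by -1.28 (SE 0.28, adjusted p = 0.0442). The PD-1 ligand genes followed, Pdcd1lg2 with 6.48 and 6.21 in WT and 5.50 and 4.98 in cKO and -1.11 (SE 0.22, adjusted p = 0.036), and Cd274 with 13.21 and 12.91 in WT and 12.13 and 12.17 in cKO and -0.91 (SE 0.15, adjusted p = 0.0207). Both PD-1 ligands restrain T cells, whereas Cd86 costimulates them, and all 3 were low in both cKO libraries. The class II chain gene H2-Aa had 13.82 and 13.37 in WT and 12.71 and 11.92 in cKO and a difference of -1.28 (adjusted p = 0.0852). Among 22 MHC class I genes 1 was called (4.55%, against 3.97% of all genes), the nonclassical gene H2-T23. It had 11.70 and 11.59 in WT and 10.56 and 10.28 in cKO, a difference of -1.22 (SE 0.13, adjusted p = 0.0111). Outside these lists Cd200, a ligand that restrains myeloid cells, had 11.20 and 11.77 in WT and 9.65 and 9.55 in cKO and differed by -1.88 (SE 0.27, adjusted p = 0.0156), and Tnfsf8, the CD30 ligand, had 8.68 and 8.68 in WT and 7.17 and 6.55 in cKO and differed by -1.82 (SE 0.26, adjusted p = 0.0156). For both, the cKO values were well below WT. The count of 3 was 1 under quantile normalization and 0 with no filter, without WT LPS replicate 1 or without either cKO library, with medians from -1 to -0.55.

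Genes of alternative activation, the programme that interleukin 4 induces in macrophages, were lower in 4 of 15 (26.7%, against 2.46% of all genes). They were higher in 0, with a median of -0.47. Mgl2, a galactose-binding lectin, had 5.98 and 5.30 in WT and 3.59 and 3.52 in cKO, and Mrc1, the mannose receptor, had 8.48 and 8.74 in WT and 7.07 and 7.15 in cKO. Igf1, a growth factor, had 11.60 and 11.25 in WT and 10.41 and 10.07 in cKO. Both cKO libraries lay below both WT libraries in all 3 genes. The differences were -2.08 (SE 0.24, adjusted p = 0.0128) for Mgl2, -1.50 (SE 0.15, adjusted p = 0.00638) for Mrc1 and -1.19 (SE 0.23, adjusted p = 0.0323) for Igf1, and Pdcd1lg2 was the last call. Other members lay above 0: Chil3, a chitinase-like protein, had 11.52 and 12.10 in WT and 13.70 and 14.15 in cKO and a difference of 2.11 (SE 0.49, adjusted p = 0.0522), and Arg1 had 4.22 and 3.56 in WT and 3.81 and 4.10 in cKO with a difference of 0.07. The list's median stayed between -0.77 and -0.17. Among phagocytic and scavenger receptors 3 of 28 were lower (10.7%): Itgam, a chain of complement receptor 3, Mertk, a receptor for dying cells, and Clec4n, which encodes dectin-2. Their differences were -1.11, -1.10 and -1.06, with Mertk at 9.47 and 9.74 in WT and 8.46 and 8.56 in cKO. The median of this list was -0.17 and turned to 0.03 under quantile normalization.

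Sensors and feedback regulators moved in both directions. Of 36 genes of the Toll-like receptor pathway 3 were lower and 1 was higher (11.1% together, against 3.97% of all genes), with a median of -0.14. Tlr1, a partner of Tlr2 for lipopeptides, had 10.76 and 10.49 in WT and 9.07 and 9.21 in cKO and differed by -1.49 (SE 0.18, adjusted p = 0.0143). The nucleic acid sensors Tlr9 and Tlr8 differed by -0.94 (SE 0.21, adjusted p = 0.0484) and -0.76 (SE 0.16, adjusted p = 0.0442). Mapk14, the stress kinase p38 alpha, was the higher one, with 6.38 and 6.29 in WT and 6.98 and 7.28 in cKO and 0.79 (SE 0.16, adjusted p = 0.0348). The LPS receptor genes were not called, with differences of -0.25 for Tlr4, -0.60 for Cd14 and -0.45 for Ly96. Among 26 genes of NF-kB subunits and feedback 11.5% were called, against 3.97% of all genes. Dusp1, a phosphatase of MAP kinases, was lower with 13.99 and 13.56 in WT and 12.31 and 12.23 in cKO and -1.51 (SE 0.23, adjusted p = 0.0178). Cyld, a deubiquitinase, was lower by a smaller margin (-0.66, SE 0.14, adjusted p = 0.0444). Socs1, a suppressor of cytokine receptor signalling, was higher, with 8.35 and 8.55 in WT and 9.68 and 9.47 in cKO and 1.13 (SE 0.21, adjusted p = 0.0275). The subunit genes Nfkb1 (-0.24), Rela (0.13) and Nfkbia (-0.12), the gene of the main inhibitor, were not called. The list median was -0.17. Tlr8, Tlr9, Mapk14 and Cyld lost their calls with no filter, under quantile normalization and with the 4 LPS samples alone. Dusp1 lost its call with no filter and under quantile normalization, and Socs1 with no filter and with the GC and length correction. Tlr1 kept its call in all of these settings.

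Immediate early genes had a median of -0.53 over 25 tested genes, with 11 at an unadjusted p under 0.05 in the lower direction. Of the list 1 gene was called (4%, against 3.97% of all genes). The call was Klf6 (-0.81, SE 0.13, adjusted p = 0.0197), a zinc finger factor. Egr1, an early growth response factor, had 10.81 and 9.44 in WT and 7.86 and 7.20 in cKO and a difference of -2.60 (SE 0.64, adjusted p = 0.0634); its replicates were far apart in both genotypes. Fos (-1.78) and Jun (-1.26), the AP-1 subunits, were not called either. Interferon-stimulated genes were called lower in 1 of 46 (2.17%, against 2.46% of all genes), with a median of -0.38 and 45 of 46 below 0. Gbp5, a guanylate-binding protein, was the call, with 11.57 and 11.26 in WT and 10.62 and 10.47 in cKO and -0.87 (SE 0.19, adjusted p = 0.0426). Their median was -0.10 under quantile normalization. Il1b and P2rx7, an ATP receptor upstream of the inflammasome (-0.63, SE 0.13, adjusted p = 0.0366), were the 2 calls among 18 inflammasome genes (11.1%).

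**Figure D3:**
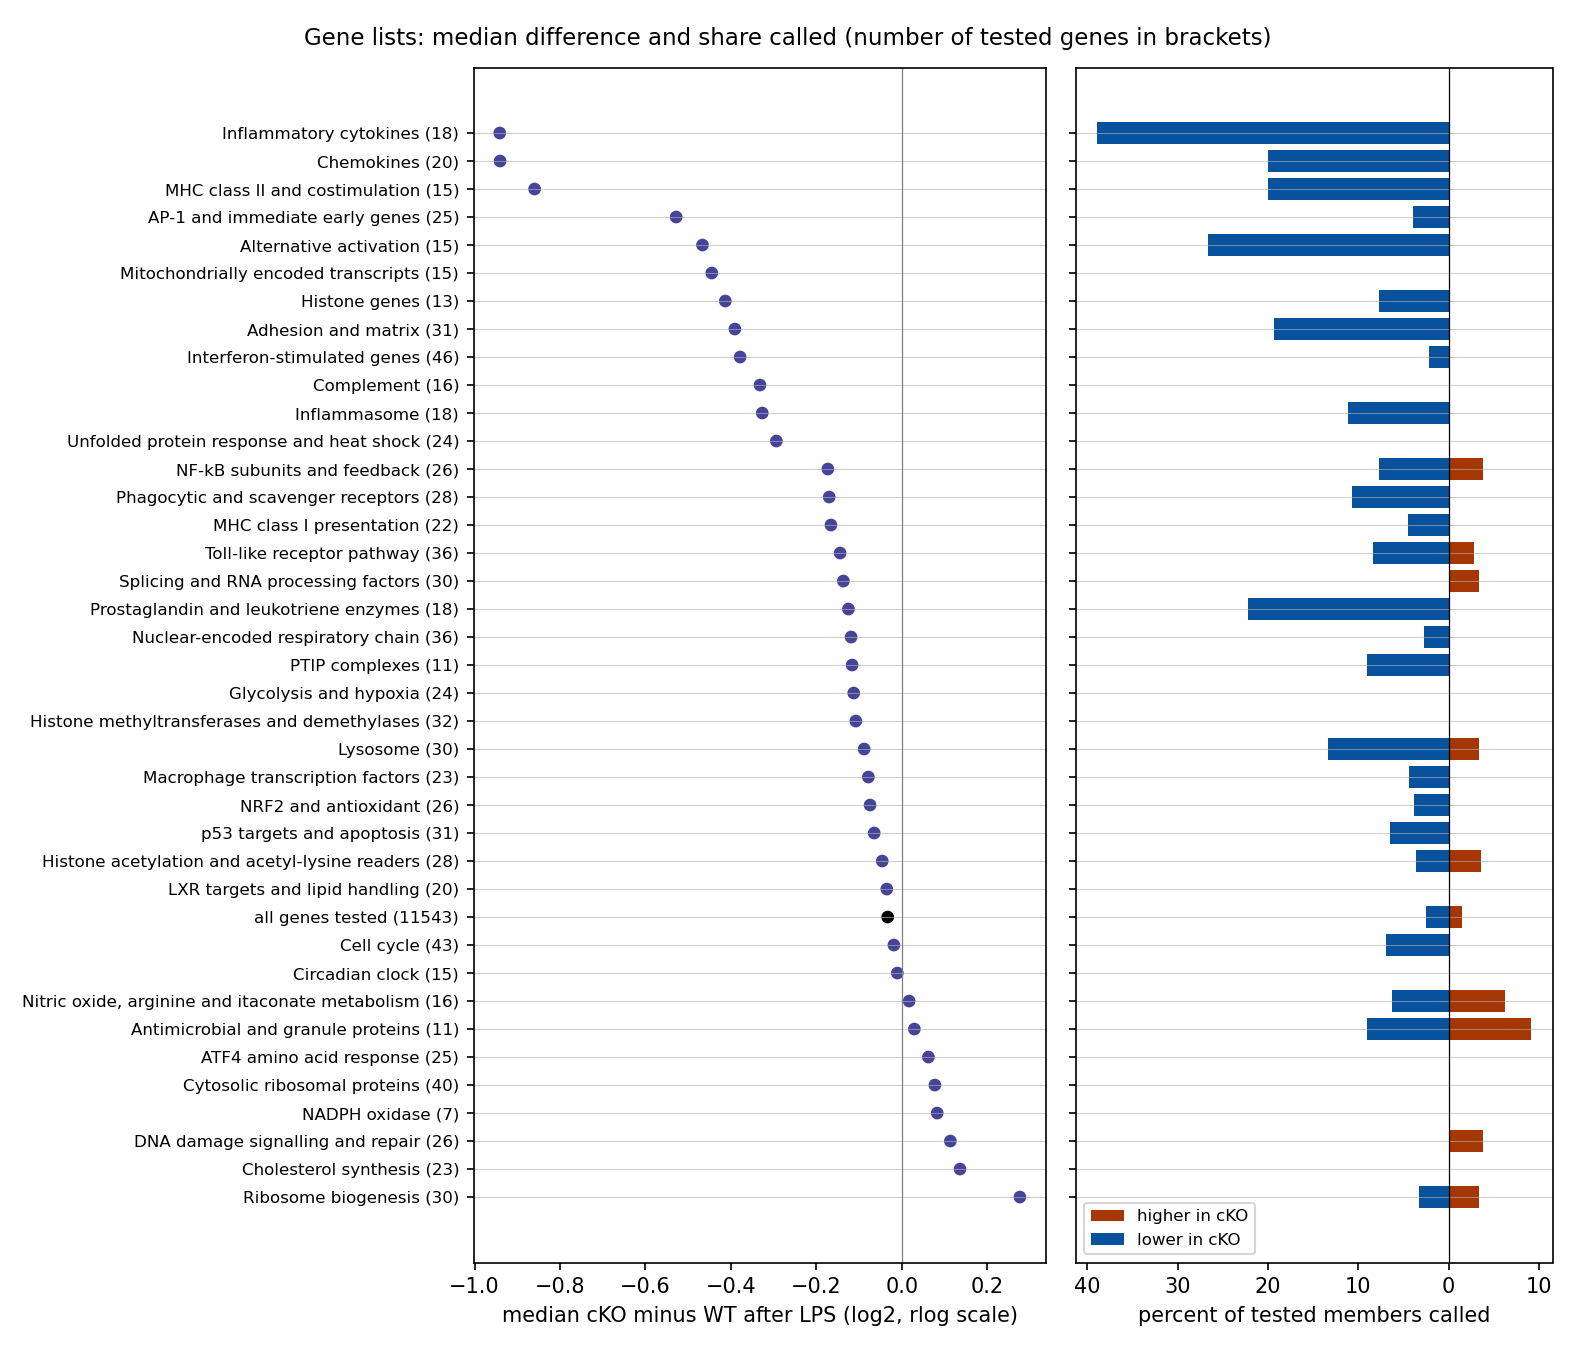
Left, the median difference between cKO and WT after LPS for each gene list (x axis, log2 on the rlog scale), with all tested genes in black at -0.03. Right, the percent of tested members called lower (blue, to the left) or higher (red, to the right); inflammatory cytokines have the lowest median (-0.94) and the longest blue bar (38.9%).

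The remaining leading falls lay outside the inflammatory lists. Lpar1, a receptor of lysophosphatidic acid (chromosome 4, 58435255 to 58553898, minus strand, GRCm38), had 8.5 and 8.31 in WT and 5.86 and 6.24 in cKO. Gpx3, an extracellular glutathione peroxidase, had 11.23 and 11.59 in WT and 9.33 and 9.30 in cKO, and Adam33, a membrane metalloprotease, had 7.59 and 7.45 in WT and 5.64 and 5.53 in cKO. In these genes the replicates of a genotype lay far closer to each other than to the other genotype. The differences were -2.35 (SE 0.28, adjusted p = 0.0128) for Lpar1, -2.10 (SE 0.25, adjusted p = 0.0128) for Gpx3 and -1.94 (SE 0.18, adjusted p = 0.00537) for Adam33. Acsl1, which activates long-chain fatty acids, had 14.36 and 13.83 in WT and 12.57 and 12.16 in cKO and differed by -1.73 (SE 0.24, adjusted p = 0.0156). Car4, a carbonic anhydrase (-1.81, SE 0.32, adjusted p = 0.0253), Tspan7, a tetraspanin (-1.90, SE 0.33, adjusted p = 0.0231), and Trim30b, of the TRIM family (-1.78, SE 0.26, adjusted p = 0.0167), completed the set with Ms4a6b, a membrane protein of the MS4A cluster. Ms4a6b had 11.86 and 10.60 in WT and 9.17 and 8.84 in cKO and differed by -2.23 (SE 0.40, adjusted p = 0.025), with WT replicates more than 1 unit apart. The gene has close relatives in its cluster, and how reads that match several genes were treated is not given. Its window is shown because it held both a kappa B core and an interferon response core match.
Ms4a6b, chr19:11518309-11518558, plus strand: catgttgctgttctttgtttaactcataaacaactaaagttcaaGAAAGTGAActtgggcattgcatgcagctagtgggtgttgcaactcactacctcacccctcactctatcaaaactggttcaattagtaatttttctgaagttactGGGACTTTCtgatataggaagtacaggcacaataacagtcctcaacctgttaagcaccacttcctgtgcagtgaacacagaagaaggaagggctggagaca

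The genes higher in cKO were spread over many functions; of the 38 lists, 2 had higher calls only and 7 had calls in both directions. Tysnd1, a protease that processes peroxisomal enzymes (chromosome 10, 61695514 to 61702773, plus strand, GRCm38), had 4.51 and 4.38 in WT and 7.68 and 8.12 in cKO. Lyz1, a lysozyme (chromosome 10, 117287797 to 117292868, minus strand, GRCm38), had 7.13 and 6.85 in WT and 9.72 and 10.07 in cKO. Elavl1, the gene of HuR, which binds AU-rich elements of cytokine mRNAs (chromosome 8, 4285382 to 4325413, minus strand, GRCm38), had 7.06 and 6.83 in WT and 9.39 and 9 in cKO. All 3 were higher in both cKO libraries than in both WT libraries. The differences were 3.46 (SE 0.48, adjusted p = 0.0156) for Tysnd1, 2.91 (SE 0.22, adjusted p = 0.00344) for Lyz1 and 2.25 (SE 0.19, adjusted p = 0.00381) for Elavl1. Lyz2, the neighbouring and near-identical main lysozyme gene of macrophages, had 19.19 and 19.31 in WT and 18.16 and 18.20 in cKO and a difference of -1.07 (SE 0.31, adjusted p = 0.0899), in the other direction; reads of the pair may be split between them. Glud1, glutamate dehydrogenase, had 7.45 and 7.43 in WT and 9.71 and 9.82 in cKO and differed by 2.33 (SE 0.24, adjusted p = 0.00776). The windows of Lyz1 and Elavl1 are shown as the higher genes with the smallest adjusted p-values; the bases shown for Lyz1 held an interferon response core match and those for Elavl1 none of the letters searched.
Lyz1, chr10:117292869-117293118, minus strand: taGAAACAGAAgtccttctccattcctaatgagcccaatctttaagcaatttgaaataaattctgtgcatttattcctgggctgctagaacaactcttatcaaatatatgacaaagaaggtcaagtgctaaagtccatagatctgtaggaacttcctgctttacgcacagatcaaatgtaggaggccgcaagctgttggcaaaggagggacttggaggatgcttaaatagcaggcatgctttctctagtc
Elavl1, chr8:4325101-4325350, minus strand: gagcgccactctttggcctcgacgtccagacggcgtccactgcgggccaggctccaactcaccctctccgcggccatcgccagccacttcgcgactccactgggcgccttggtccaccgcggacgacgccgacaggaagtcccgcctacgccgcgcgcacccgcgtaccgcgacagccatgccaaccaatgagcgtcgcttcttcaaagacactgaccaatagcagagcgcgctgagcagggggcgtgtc

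The other leading rises included genes of protein turnover and RNA handling. The list of splicing and RNA processing factors had 1 call among 30 genes, Elavl1 (3.33%, against 3.97% of all genes). In this list 19 genes lay below 0, and the median of -0.14 was 0.05 under quantile normalization. Psmd3, a regulatory subunit of the proteasome, had 5.88 and 6.62 in WT and 8.42 and 8.78 in cKO and differed by 2.35 (SE 0.39, adjusted p = 0.0216). Usp39, a splicing factor, had 5.15 and 5.71 in WT and 7.60 and 7.68 in cKO and differed by 2.20 (SE 0.39, adjusted p = 0.0239). Prmt3, an arginine methyltransferase, had 3.61 and 4.14 in WT and 5.97 and 6.32 in cKO and differed by 2.27 (SE 0.45, adjusted p = 0.0348). Both WT libraries were low and both cKO libraries high in each. The kinase genes Trp53rka (2.71, SE 0.59, adjusted p = 0.0458) and Trp53rkb (2.35, SE 0.43, adjusted p = 0.0275) are near-identical copies, so that their reads may be shared. Clptm1, an endoplasmic reticulum membrane protein (2.75, SE 0.61, adjusted p = 0.0472), Tspan17, a tetraspanin (2.45, SE 0.50, adjusted p = 0.0373), Mgat4b, an N-glycan branching enzyme (2.32, SE 0.49, adjusted p = 0.0411), Rrad, a small GTPase (2.26, SE 0.45, adjusted p = 0.0348), and Fkbp1b, an FK506-binding protein (2.21, SE 0.47, adjusted p = 0.0433), were also higher. In 11 of the 15 leading rises the cKO libraries at 0 h, which share the variance estimate, lay more than 1 unit apart, replicate 2 the higher in all 15; for Clptm1 they were at 8.44 and 10.54. Over all 174 higher genes replicate 2 was the higher in 145 of WT at 0 h, 115 of WT after LPS, 133 of cKO at 0 h and 117 of cKO after LPS. Over the 284 lower genes it was the higher in 118, 90, 143 and 105, in the same order of groups. Over all tested genes the counts ran from 5483 to 5788 of 11543. What sets this pattern was not tested.

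Chromatin genes were mostly uncalled. Of 32 histone methyltransferases and demethylases 0 passed, 0 had an unadjusted p under 0.05 in the higher and 2 in the lower direction, Setdb2 (-0.63) and Kdm7a (-0.46). Among 28 genes of histone acetylation 7.14% were called, against 3.97% of all genes. The acetyltransferase gene Kat2a had 5.47 and 5.89 in WT and 7.15 and 7.11 in cKO and differed by 1.46 (SE 0.20, adjusted p = 0.0156). Kat6a had 6.44 and 6.36 in WT and 5.49 and 5.36 in cKO and differed by -0.98 (SE 0.20, adjusted p = 0.0393). Both were separated by genotype, in opposite directions. The replacement histone gene H3f3a was the 1 call of 13 histone genes (7.69%, against 3.97% of all genes). It had 11.22 and 11.10 in WT and 10.22 and 10.18 in cKO, a difference of -0.96 (SE 0.13, adjusted p = 0.0156). Of 26 genes of DNA damage signalling 1 was called (3.85%, against 3.97% of all genes). This was Rnf168, a ubiquitin ligase of the 53BP1 pathway, which was higher (1.25, SE 0.28, adjusted p = 0.0488).

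The lists of nitric oxide, arginine and itaconate metabolism (2 of 16 called, 12.5%) and of the lysosome (5 of 30, 16.7%) had shares of calls above the 3.97% of all genes, in both directions. In arginine metabolism Ass1 (-0.93, SE 0.18, adjusted p = 0.032) was lower and Asl (0.50, SE 0.11, adjusted p = 0.0473) higher, consecutive enzymes of arginine synthesis. The Asl call was lost with no filter, with samples centred on their medians and under quantile normalization. It was also lost without a variance trend, with the 4 LPS samples alone and with the GC and length correction. Ass1 lost its call with no filter, under quantile normalization and without a variance trend. Nos2, the inducible nitric oxide synthase, had 12.26 and 11.26 in WT and 10.68 and 9.78 in cKO; all cKO values were below WT, but the replicates were about 1 unit apart and the difference of -1.52 had an adjusted p of 0.151. The ribosome biogenesis list had the highest median (0.28 over 30 genes, 6.67% called). Rrs1 was higher (1.93, SE 0.34, adjusted p = 0.0245) and Rcl1 lower (-0.97, SE 0.17, adjusted p = 0.0265). In the lysosome list, 30 genes, the channel gene Mcoln1 was higher (1.45, SE 0.28, adjusted p = 0.0325), while Lamp2 (-0.85, SE 0.13, adjusted p = 0.0192), Ctsl (-1.16, SE 0.21, adjusted p = 0.0273) and Ctsh (-0.81, SE 0.15, adjusted p = 0.0315) were among 4 that were lower; the median of -0.09 was 0.15 under quantile normalization. Cell cycle genes were called in 3 of 43 (6.98%, against 3.97% of all genes), all lower. They were Mki67, a proliferation marker (-1.23, SE 0.25, adjusted p = 0.0365), Ccne1 (-0.81, SE 0.18, adjusted p = 0.0482) and Tyms (-0.72, SE 0.16, adjusted p = 0.0488). Over the whole cell cycle list 21 genes lay above 0 and 22 below, with a median of -0.02. Mdm2 (-0.75, SE 0.12, adjusted p = 0.0178) and Pmaip1 (-1.35, SE 0.18, adjusted p = 0.0156) were lower among 31 p53 targets (6.45% called). The respiratory chain gene Sdhd (-0.67, SE 0.11, adjusted p = 0.0218), the hypoxia factor gene Hif1a (-0.73, SE 0.14, adjusted p = 0.0347) and Wfdc17 (-1.06, SE 0.22, adjusted p = 0.037) were the lower calls of their lists. In the same order these lists had 2.78%, 4.35% and 18.2% of tested members called, the last with Lyz1 included.

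No gene was called in 11 of 38 lists. They were histone methyltransferases and demethylases, glycolysis and hypoxia, cholesterol synthesis, LXR targets, complement, the unfolded protein response, the ATF4 response, NADPH oxidase, mitochondrially encoded transcripts, cytosolic ribosomal proteins and the circadian clock. Near the threshold were the ribosomal RNA gene mt-Rnr2 (-0.97, SE 0.22, adjusted p = 0.0512), Slc3a2, a chain of amino acid transporters (-0.55, SE 0.13, adjusted p = 0.0538), and Sqle, a sterol synthesis enzyme (0.60, SE 0.14, adjusted p = 0.0562). Of the mitochondrially encoded transcripts all 15 lay below 0, with a median of -0.44 that was -0.19 after the GC and length correction. In complement C1qa (-1.54, SE 0.37, adjusted p = 0.0579) and C1qb (-1.49, SE 0.34, adjusted p = 0.0524) lay below 0 and the neighbouring C1qc (2.25, SE 0.89, adjusted p = 0.19) above.

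Most genes called after LPS lay on the same side of 0 before LPS. The 2 comparisons share no library, though they share the variance estimate. Within a genotype the titles carry the same replicate numbers at both times, and whether same-numbered samples came from the same animal is not given; if they did, the values at the 2 times are not independent. Of the 174 genes higher after LPS 160 (92%) were above 0 at 0 h too, with a median of 0.57, and of the 284 lower genes 257 (90.5%) were below 0, with a median of -0.43. Over all genes tested 64.7% had the same sign at both times. The size after LPS exceeded that at 0 h in 171 of the higher and 262 of the lower genes, which were chosen for their size after LPS. Lyz1 (3.13 at 0 h and 2.91 after LPS), Elavl1 (2.04 and 2.25), Mgl2 (-1.96 and -2.08) and Ptgs2 (-2.33 and -2.29) differed by similar amounts at both times. Tnfsf8 differed by 0.00 at 0 h and -1.82 after LPS, Mertk by -0.09 and -1.10, and Il1a by -0.28 and -1.55. Tested as an interaction, the difference between the times had an unadjusted p of 0.001 for Tnfsf8 (adjusted p = 0.643), 0.00339 for Mertk (adjusted p = 0.682) and 0.00783 for Il1a (adjusted p = 0.682). Over all genes 0 interactions were called, 751 had an unadjusted p under 0.05, among them 206 of the 458 called genes, and the smallest adjusted p was 0.643. The interaction holds the difference after LPS on which the 458 genes were chosen, so the share of 206 is not independent of that choice. With no filter on low values 10 interactions were called.

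**Figure D4:**
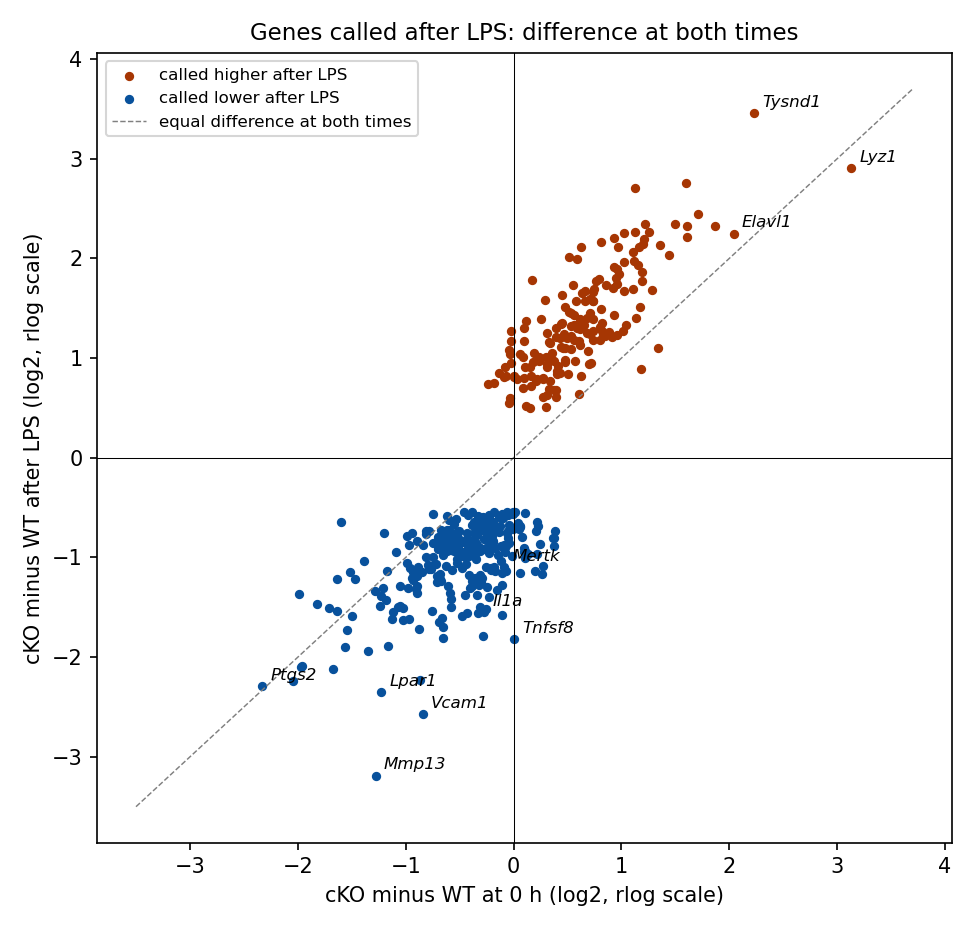
Difference between cKO and WT at 0 h (x axis) and after LPS (y axis), log2 on the rlog scale, for the 174 genes called higher (red) and 284 called lower (blue) after LPS; the dashed line marks equal differences. Lyz1 and Ptgs2 lie near the line and Tnfsf8 lies at 0.00 at 0 h and -1.82 after LPS.

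How LPS moved these genes in WT can be set beside the genotype difference, although both use the WT LPS libraries. In WT the median change by LPS was 1.07 for the genes lower in cKO and -0.55 for the higher ones, against -0.01 for all genes tested. The genes were chosen on a difference that holds the same WT LPS values, so these measures are not independent. Of the 15 leading falls 13 had a WT change above 0 and 9 one above 2, such as Mmp13 (4.63), Ptgs2 (4.50), Vcam1 (4.49) and Car4 (4.24). Thbs1 (-0.15), Tspan7 (-0.04), Gpx3 (0.04), Adam33 (0.01) and Mgl2 (0.14) were near 0. Of the 15 leading rises 12 had a WT change below 0, between -0.99 for Prmt3 and -0.02 for Trp53rkb.

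Calls varied with the GC content of the transcript, the share of G and C bases. The median GC content was 49.5% for all genes tested, 54.6% for the higher and 45.5% for the lower genes. In the bin of genes with the lowest GC content, the first of 5 equal bins (up to 43.8%) 8 were higher and 111 lower, with a median difference of -0.21 over all its genes. In the bin with the highest GC content (from 55.3%) 78 were higher and 18 lower, with a median of 0.11. At 0 h the medians of these 5 bins ran from -0.04 to 0.001. The slope of each library's values on GC content, in log2 units per 10 percentage points, was -0.141 and -0.166 in the WT LPS libraries and between 0.00982 and 0.0888 in the other 6. When GC content and transcript length were corrected for, a choice made after seeing the data, 117 genes were higher and 189 lower, 111 and 169 of them shared with the calls above, and all 454 called genes with a value kept their direction. GC content goes with many features of a gene, and its part in the difference was not tested further.

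**Figure D5:**
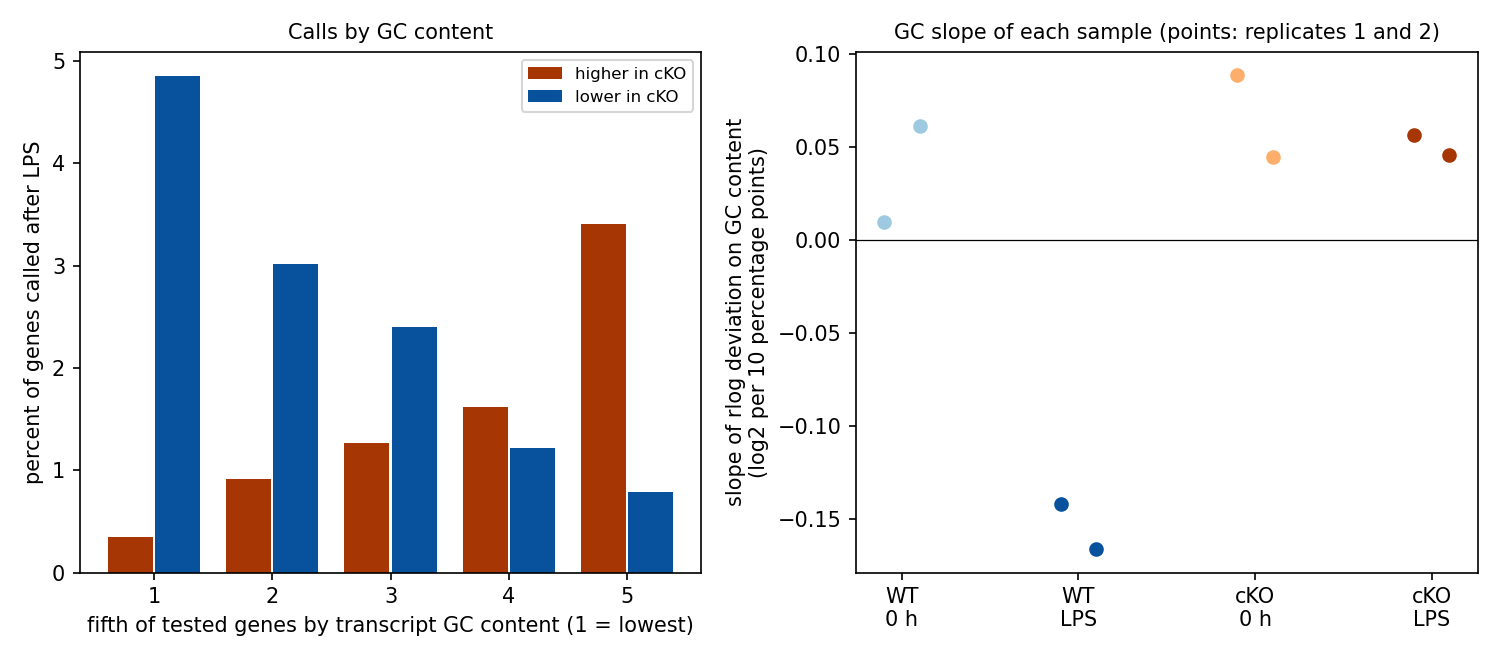
Left, percent of genes called higher (red) or lower (blue) in cKO after LPS in 5 equal bins of the tested genes by transcript GC content; higher calls rise from 0.35% to 3.41% and lower calls drop from 4.85% to 0.787%. Right, slope of rlog on GC content in each of the 8 samples (log2 per 10 percentage points), lowest in the WT LPS samples at -0.141 and -0.166.

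The labelled cell type was checked against marker genes. All 14 macrophage markers passed the filter. Their mean rlog was 12.48 and 12.17 in the WT and 11.96 and 12 in the cKO LPS libraries. Of the 14, 12 had differences below 0, with a median of -0.45, against -0.03 for all genes tested. The calls were Itgam and Mertk, both lower in cKO (14.3%, against 3.97% of all genes). Cd68 and Spi1 lay above 0, Spi1 by 2.57. Of 12 neutrophil markers, which averaged 2.39 and 2.79 in WT and 2.49 and 2.73 in cKO, 3 passed the filter. Mmp8, a neutrophil collagenase, had 12.80 and 12.05 in WT and 13.00 and 12.44 in cKO, S100a8, a calcium-binding protein, had 7.23 and 7.60 in WT and 8.23 and 8.35 in cKO, and Camp, an antimicrobial peptide, had 4.89 and 5.91 in WT and 5.95 and 6.52 in cKO. All 3 differences lay above 0, with a median of 0.83; 0 were called and 1, that of S100a8 (0.88, SE 0.21, adjusted p = 0.0541), had an unadjusted p under 0.05. Elane, Mpo, Retnlg and Ly6g had means at or below 0. Below the filter, S100a9 had 1.07 and 2.56 in WT and 1.04 and 1.57 in cKO. Ngp had 2.62 and 3.89 in WT and 2.01 and 3.44 in cKO, and Ltf 1.75 and 2.16 against 1.16 and 1.78. These genes and Cxcr2 had lower means in cKO, and Prtn3, near 0, a higher mean. Of 16 lymphocyte markers, which averaged 0.73 to 0.82, 3 passed and 0 were called; Lck, a kinase, had 7.80 and 8.06 in WT and 8.04 and 7.44 in cKO and Ighm, an antibody heavy chain, had 6.95 and 7.25 in WT and 7.46 and 7.21 in cKO, while 9 markers, among them Cd3e, Cd8a and Ms4a1, had means at or below 0. Dendritic cell markers averaged 4.78 and 4.37 in WT and 4.34 and 4.13 in cKO, with 6 of 10 tested, 0 called and Siglech at or below 0. Of 12 stromal and endothelial markers, which averaged 1.77 to 2.13, 4 passed, all 4 with differences below 0 (median -0.45) and 0 called. Among them Kdr, a growth factor receptor, had 9.25 and 9.32 in WT and 8.75 and 8.91 in cKO and Pdgfrb had 6.25 and 6.28 in WT and 6.09 and 5.69 in cKO; Col1a1, Col3a1 and Tek had means at or below 0. Mast cell and basophil markers averaged 1.60 to 2.12, with 4 of 10 tested and 0 called; the basophil protease gene Prss34 had 5.64 and 8.19 in WT and 6.62 and 7.52 in cKO. Erythroid and megakaryocyte markers averaged 0.17 to 0.53, with 2 of 12 tested and 0 called. The part of other cell types in the differences was not tested.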

How the data were processed

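PolyA RNA of 8 macrophage cultures was sequenced, 2 per genotype and time. CASAVA, DESeq2, featureCounts and HISAT2 2.1.0 were used with the build GRCm38, per the submitters' processing notes. Not given in the sources used here are the annotation, whether strand was used and how multi-mapping reads were treated. The deposited table holds the authors' regularised log2 value (rlog) per gene and sample, and the authors' log2 fold changes and adjusted p-values for 4 comparisons, per the file headers. Samples were grouped by genotype and time point in the labels.

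From the rlog values, limma 3.58.1 (R 4.3.3) fitted 4 group means over 8 samples with a variance trend (4 residual degrees of freedom) and Benjamini-Hochberg adjustment over 11543 genes whose average rlog reached 3; the fit was tested on simulated data. An exact permutation test of 2 against 2 cannot go below p = 0.333. Positions, GC content and transcript length came from GENCODE M21 (GRCm38), with 11440 tested genes matched, and promoter windows from RefSeq (GRCm38.p6), with 8600 tested genes matched; figures were drawn with matplotlib 3.10.9.

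Named genes were the measured PTIP complex members, the 15 largest rises and 15 largest falls past the threshold with groups that did not overlap (leaving out clone names and pseudogenes), up to 3 rises and 3 falls past the threshold per list or, where none passed, the 2 members with the smallest unadjusted p, and 10 indicator genes; 1 of the rises is not reported here. Further list members, Lyz2, Ptgs2os and the genes of the closing observations were named after their values were seen. The comparison, lists and rule were chosen with earlier results of these data known. Alternatives were other filters, centred or quantile-normalized samples, no trend, a robust fit, the 4 LPS samples alone, a replicate block and each library left out, and, added after seeing the data, a GC and length correction.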

Additional observations from a re-analysis of the deposited data

How the results depend on the processing

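All 458 called genes kept their direction under every setting that gave them a value, but their number changed. With no filter on low values 56 genes were higher and 152 lower, under quantile normalization 115 and 120, without a variance trend 119 and 182, and with the GC and length correction, added after seeing the data, 117 and 189. Leaving out 1 library gave 0 to 275 higher and 0 to 309 lower genes. Interactions were called in 0 genes, and in 10 with no filter. With the replicate number as a block 335 were higher and 469 lower, including all 174 and 284. The labels do not say what a number marks, and the deviations of same-numbered samples correlated at -0.04 to 0.31 over the 6 pairs of groups, so the numbers were not taken to pair the samples. The causes were not tested, other than that fits with a library left out hold fewer samples.

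Among the named genes without a call, these changed sign. Under the GC and length correction Kmt2d was -0.186 and Dpy30 0.139, and under quantile normalization Cybb was 0.439 and Ccl5 0.0985. With 1 library left out Ash2l ran from -0.146 to 0.430, Arg1 from -0.263 to 0.394, Kmt2d from -0.274 to 0.343, Dpy30 from -0.333 to 0.192 and Ncoa6 from -0.341 to 0.108. The sign changes with a library left out were -0.146 and -0.0812 for Ash2l, -0.263 and -0.0791 for Arg1, -0.274 and -0.0328 for Kmt2d, 0.192 and 0.133 for Dpy30, and 0.108 and 0.0442 for Ncoa6. Precision is limited by 2 samples per group, and without read counts the depth behind a low rlog is unknown.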

Other observations

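Some of the differences with the greatest size were not called, in genes whose cKO replicates lay far apart. These genes were chosen after their values were seen. Spi1, the gene of the macrophage transcription factor PU.1, had 9.09 and 9.09 in WT and 10.80 and 12.50 in cKO after LPS and a difference of 2.57 (SE 0.80, adjusted p = 0.109) in limma. C1qc, a chain of complement C1q, had 8.02 and 7.57 in WT and 9.41 and 10.70 in cKO, with a difference of 2.25, while its neighbours C1qa had 11.42 and 10.20 in WT and 9.43 and 9.10 in cKO (-1.54) and C1qb had 14.52 and 13.58 in WT and 12.82 and 12.31 in cKO (-1.49). Ier2, an immediate early gene, had 7.51 and 7.80 in WT and 9.01 and 10.31 in cKO and a difference of 2.01 (SE 0.59, adjusted p = 0.0936), and was the 1 member of its list above 0. Lsm4, of the U6 RNA-binding complex, had 4.47 and 4.96 in WT and 7.38 and 8.89 in cKO and a difference of 3.42 (SE 0.82, adjusted p = 0.0584). At 0 h the cKO minus WT differences were 2.20 for Spi1, 2.21 for C1qc, 1.48 for Ier2 and 2.68 for Lsm4.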
